A study of Mus musculus with 2 samples.

Results

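The Pax genes encode transcription factors that share a paired domain, and the mouse has 9 of them, Pax1 to Pax9. Open chromatin around these 9 of 21938 protein-coding genes was read from DNase-seq of whole B6NCrl mouse embryos at embryonic day 10.5, in which both sexes were pooled and no treatment is named. DNase I cuts DNA that is not held in nucleosomes, and clusters of cuts were deposited by the authors as peaks of 150 bp, each with a strength score (a whole number whose definition is not stated), and as hotspots, which are stretches of enriched cutting of any length. The 2 biological replicates, which carry the same donor entry in the labels, form a single group, so there is no contrast between conditions and no p-value is given. Each gene was taken with its gene body plus 100 kb on each side (GENCODE M21, mm10), and for Pax6 the downstream side was extended to 200 kb, into the neighbouring gene Elp4. The 9 windows span 2503 kb and hold 386 peaks in replicate 1 and 707 in replicate 2, of which 288 pair one to one by overlap and are called shared.

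Paired-domain factors bind DNA and specify organ fields and cell lineages in the early embryo. They fall into 4 subgroups of close relatives. Pax1 and Pax9 act in the sclerotome of the somites and in the pharyngeal pouches. Pax2, Pax5 and Pax8 act at the midbrain-hindbrain boundary, and Pax2 and Pax8 also in the inner ear and in the developing kidney. Later Pax5 directs B cells and Pax8 the thyroid. Pax3 and Pax7 mark the dorsal neural tube, neural crest and muscle precursors. Pax4 and Pax6 act in the pancreas, and Pax6 also directs eye, forebrain and spinal cord development, partly through long-range enhancers that lie inside introns of Elp4.

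Across the nuclear genome the replicates held 207946 and 229568 peaks, with median strengths of 41 and 50, and 74.5% and 67.6% of them overlapped a peak of the other replicate. The files hold no read numbers, so the depth behind a peak is unknown, and a missing peak does not show closed chromatin in every cell type. Of 20 marker genes of embryonic tissues 16 had a promoter peak in both replicates, as did 69.7% of all protein-coding genes. The blood genes Gata1 and Hbb-y had none in either, and the muscle gene Myf5 and the endothelial gene Cdh5 had one in replicate 1 alone. Among 11 markers of trophoblast, decidua, yolk sac, B cells, thyroid and pancreas, the thyroid gene Tg (49 in both) and the pancreatic gene Pdx1 (53 and 80) had one in both replicates, and the pancreatic gene Ins2 in replicate 2 alone (35). The B cell gene Cd79a had none. In a whole embryo, opening in few cells and weak opening in many cells cannot be told apart.

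A selection of open sites in the windows is shown as sequence, in the forward strand of mm10. Most are among the strongest distal shared peaks, where distal means over 1 kb from every annotated transcription start site (TSS). No distal site of Pax2, Pax4, Pax5 or Pax8 is printed, although the strongest of Pax2, Pax5 and Pax8 outscored the Elp4 and Pax1 sites. The intronic site of Pax7 was the strongest distal site of the family, and the Pax3 sites lie in introns of that gene. The Pax6os1 pair lies upstream of Pax6, the Elp4 pair downstream, and the Pax9 site close to Nkx2-9. Capitals mark every match, on either strand, to 1 of 12 short motifs, which are spelled out beside their counts.
Pax7 intron, chr4:139811136-139811285: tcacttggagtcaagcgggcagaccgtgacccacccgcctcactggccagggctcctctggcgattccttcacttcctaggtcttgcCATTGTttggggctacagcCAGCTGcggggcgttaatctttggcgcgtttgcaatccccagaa
Pax3 intron, chr1:78168016-78168165: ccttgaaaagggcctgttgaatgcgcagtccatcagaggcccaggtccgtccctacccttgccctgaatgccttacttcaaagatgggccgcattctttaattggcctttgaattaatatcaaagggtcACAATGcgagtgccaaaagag
Pax3 intron nearer the TSS, chr1:78190776-78190925: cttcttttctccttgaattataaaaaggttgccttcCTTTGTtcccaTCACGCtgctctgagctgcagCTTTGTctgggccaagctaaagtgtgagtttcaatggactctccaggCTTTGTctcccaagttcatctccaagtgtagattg
Pax6os1 intron, chr2:105612096-105612245: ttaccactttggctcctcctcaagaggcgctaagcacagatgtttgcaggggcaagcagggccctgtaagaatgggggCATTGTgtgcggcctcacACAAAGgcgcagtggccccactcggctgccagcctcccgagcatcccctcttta
Pax6os1 intron, next peak, chr2:105612336-105612485: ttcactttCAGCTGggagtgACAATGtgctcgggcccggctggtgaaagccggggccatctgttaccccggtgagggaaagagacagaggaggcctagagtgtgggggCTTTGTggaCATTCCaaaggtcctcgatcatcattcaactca
Elp4 intron, chr2:105779456-105779605: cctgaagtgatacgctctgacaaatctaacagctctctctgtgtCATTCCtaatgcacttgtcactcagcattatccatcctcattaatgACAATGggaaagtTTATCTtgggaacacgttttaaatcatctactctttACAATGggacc
Elp4 intron nearer Pax6, chr2:105719896-105720045: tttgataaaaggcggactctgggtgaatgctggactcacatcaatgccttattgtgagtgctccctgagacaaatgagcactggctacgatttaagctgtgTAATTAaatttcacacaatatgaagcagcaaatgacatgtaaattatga
Pax9 upstream, chr12:56614676-56614825: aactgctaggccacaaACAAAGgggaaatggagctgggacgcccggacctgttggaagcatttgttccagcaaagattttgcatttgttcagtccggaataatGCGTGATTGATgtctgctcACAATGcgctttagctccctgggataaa
Pax1 intron, chr2:147379076-147379225: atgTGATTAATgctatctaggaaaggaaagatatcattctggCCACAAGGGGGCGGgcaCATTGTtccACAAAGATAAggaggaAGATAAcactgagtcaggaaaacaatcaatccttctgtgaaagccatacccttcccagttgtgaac

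Promoters of 8 of the 9 genes were open, meaning that a peak lay within 1 kb of an annotated TSS in both replicates, and 69.7% of all protein-coding genes met this rule. In each replicate taken singly 8 were open too, beside 70.8% of all genes in replicate 1 and 71.9% in replicate 2. Pax4 was the exception, with no peak at any of its 4 TSSs in either replicate. Its promoter was also poor in CpG dinucleotides. The observed to expected CpG ratio within 500 bp of its first TSS was 0.05, against a median of 0.64 over the 9 genes and 0.55 over all protein-coding genes. At first TSSs, Pax8 had the next lowest ratio (0.22), and the other 7 ranged from 0.57 (Pax6) to 0.70 (Pax2).

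The strongest promoters of the family were those of Pax9 (strengths 126 and 127 in replicates 1 and 2) and Pax5 (125 and 128), both at the 82.9th percentile of all protein-coding genes by mean strength. Pax6 followed with 105 and 128, Pax3 with 102 and 114, Pax1 with 96 and 117 and Pax2 with 85 and 105. Pax7 (71 and 91) and Pax8 (54 and 71) were the weakest open promoters. Pax5, Pax6 and Pax9 had a mean strength (126.5, 116.5 and 126.5) above 113.5, the median of the means of all open genes. By replicate the medians of all open genes were 109 and 118, and Pax6 lay below the first and above the second. Replicate 2 was higher for each of the 8 open genes, by 1 to 23 points, and its median over all open genes was higher too. The share of all open genes with a higher value in replicate 2 is not given. Pax9 and Pax5 changed order between the replicates and cannot be ranked against each other. The same holds for Pax3 and Pax1 (SDs of 8.49 and 14.8, n = 2).

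**Figure D1:**
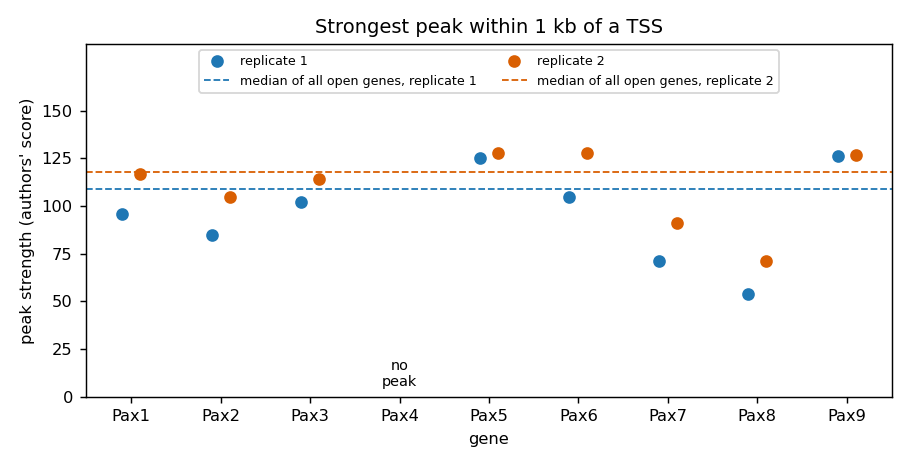
Strength of the strongest peak within 1 kb of a TSS (y axis, the authors' score) for each Pax gene (x axis), with 1 point per replicate and dashed lines at the median of all open protein-coding genes. Pax5 and Pax9 lie above both lines in both replicates, Pax6 lies below its line in replicate 1 and above it in replicate 2, Pax1, Pax2, Pax3, Pax7 and Pax8 lie below in both, and Pax4 has no peak.

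In 4 genes the strongest promoter peak did not lie within 1 kb of the first TSS. TSSs within 1 kb of each other were taken as 1 cluster. In Pax5 the first cluster carried 50 and 67, and the second, 6.48 kb downstream, carried 125 and 128, whereas 2 later clusters inside the gene had no peak. Pax9 had 49 and 89 at its first TSS and 126 and 127 at the second cluster 3.87 kb away. Pax6 has 24 annotated TSSs in 10 clusters. Its first cluster had 64 and 85, the fourth, 6.21 kb downstream, had 105 and 128, and the seventh, 12.8 kb downstream, had 80 and 96. In Pax8 the strongest peaks lay 1349 and 1469 bp into the gene, near later TSSs of its first cluster. With the first TSS alone the mean strengths were 58.5 for Pax5, 69 for Pax9 and 74.5 for Pax6, and Pax8 had no promoter peak in replicate 1 and was not open.

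The internal clusters also set the replicates apart. In Pax1 the later TSS clusters, 3.07 and 6.36 kb after the first, had no peak in replicate 1, but 7 and 4 peaks in replicate 2 (strongest 62 and 69). Pax6 clusters 5, 8 and 9 had no peak in replicate 1 and 4 each in replicate 2, with strengths up to 68, 76 and 69. Pax8 had peaks at its first cluster in both replicates and none at its other 2 clusters in either.

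The promoter peaks of Pax1, Pax5 and Pax8 in replicate 1 are printed, with CG in capitals, because they hold no annotated UTR. They hold 10, 10 and 15 CG dinucleotides, and the median over the 15300 open genes was 12. Peaks of the other open members held from 7 (Pax2) to 12 (Pax6). The peak of Pax8, 1.35 kb into the gene, held more CG than that median, although the ratio at its first TSS was low.
Pax1 promoter peak, chr2:147362456-147362605: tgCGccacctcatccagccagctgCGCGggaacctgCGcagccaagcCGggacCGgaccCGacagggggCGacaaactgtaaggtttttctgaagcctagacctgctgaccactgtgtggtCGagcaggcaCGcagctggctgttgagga
Pax5 promoter peak, chr4:44704496-44704645: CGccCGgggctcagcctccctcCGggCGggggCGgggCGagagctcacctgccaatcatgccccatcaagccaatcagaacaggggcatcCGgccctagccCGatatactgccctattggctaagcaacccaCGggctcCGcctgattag
Pax8 promoter peak, chr2:24474176-24474325: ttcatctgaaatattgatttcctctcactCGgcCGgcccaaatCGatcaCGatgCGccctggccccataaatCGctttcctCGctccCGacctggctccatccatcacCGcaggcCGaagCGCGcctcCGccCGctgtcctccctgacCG

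Some promoter peaks stand at TSSs of other transcripts as well. The Pax1 peak of replicate 1 covers an annotated TSS, but none of the Pax1 TSSs lies in it. Its centre is 605 bp after the first Pax1 TSS. The peak also lies within 1 kb of a TSS of the antisense gene AI646519. The reads carry no strand of transcription, so opening of such overlapping starts cannot be assigned to 1 gene. The strongest promoter of another gene in each window was that of Snd1 near Pax4 (138 in both), Slf2 near Pax2 (126 and 133), Zcchc7 near Pax5 (121 and 125), Psd4 near Pax8 (104 and 108), Pax6os1 near Pax6 (63 and 88), Mir7020 near Pax7 (78 and 82) and, near Pax1, AI646519 at the shared peak. Near Pax9 the strongest was Nkx2-9, with no peak in replicate 1 and 75 in replicate 2. No other annotated gene has a TSS in the Pax3 window.

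Away from promoters the windows held 230 distal shared peaks. That is 9.19 per 100 kb, against 4.09 per 100 kb of the nuclear genome. Per window the median was 9.33 per 100 kb, and over the windows of all protein-coding genes it was 4.79. Of the 9 windows 8 lay above that median, and by definition about as many genes lie above as below it. Pax7 was densest (40 distal shared peaks, 13.5 per 100 kb, 98th percentile), followed by Pax2 (36, 12.8, 97.2nd percentile) and Pax3 (31, 10.5, 92.9th percentile). Pax6 (31 peaks, 9.44 per 100 kb) and Pax5 (36 peaks, 9.33) came next. Pax8 had 19 (7.45), Pax9 had 15 (6.79) and Pax1 had 14 (6.05). Pax4 was lowest with 8 distal shared peaks, 3.86 per 100 kb, at the 38.9th percentile.

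**Figure D2:**
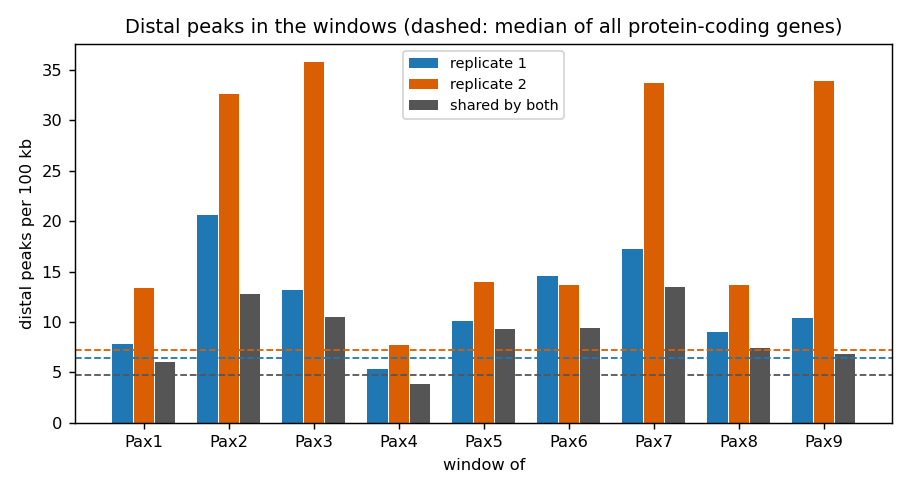
Distal peaks per 100 kb of window (y axis) for each Pax gene (x axis) in replicate 1, in replicate 2 and shared by both, with dashed lines at the medians of all protein-coding genes in the same colours. Shared density lies above its median in 8 windows and below it in that of Pax4, and the replicate 2 bars of Pax2, Pax3, Pax7 and Pax9 exceed 30 per 100 kb.

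Counts of sites by part of the locus differed between genes. Of the 230 distal shared peaks 22 touched an exon, 106 lay in introns of any gene and 102 between genes, shares of 9.57%, 46.1% and 44.3%, against 5.93%, 47.7% and 46.4% of all distal shared peaks. Pax3 held 18 of its 31 inside its own gene body, Pax5 held 17 of 36 and Pax7 held 14 of 40. Their gene bodies take up 95.9 of 295.9 kb, 185.7 of 385.7 kb and 96.5 of 296.5 kb of the windows. The counts of Pax5 and Pax7 are thus near the share of length, and that of Pax3 lies above it. Pax2 held 6 of 36 inside the gene, with 16 upstream and 14 downstream. In Pax8, 10 of 19 lay upstream, in Pax9 8 of 15, and in Pax1 8 of 14 lay downstream. Of the 8 in the Pax4 window 6 lay upstream, none in the gene body and 2 downstream.

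Distal shared peaks of the windows had a median mean strength of 59.5, against 50 for all distal shared peaks, and 33 of the 230 (14.3%) were among the strongest 10% genome-wide (10.3% with ties). The site in the Pax7 intron, 22.3 kb from the first TSS, scored 106 and 117 and ranked in the top 1.14%. The second strongest of Pax7, at 25.9 kb in the same gene body, scored 90 and 111. In Pax3 the intronic sites at 29 and 6.28 kb scored 93 and 114, and 96 and 107. Pax8 had its strongest distal sites upstream, at 27.7 kb (101 and 116) and 46 kb (95 and 105). Those of Pax2 lay 86.3 kb upstream (100 and 106) and 63.5 kb upstream, in an exon of the noncoding gene Gm26644 (90 and 102).

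For Pax5 the strongest distal site lay in its own gene body, 152 kb from the first TSS (96 in both), and the next lay 68 kb upstream inside an intron of Zcchc7 (93 and 97). Pax1 had weaker ones, at 17.2 kb in its intron (79 and 89) and 62.9 kb downstream (67 and 70). The Pax4 window was weakest, at 15.4 kb upstream (51 and 81) and 104 kb downstream in an intron of Zfp800 (48 and 80). In the Pax9 window the strongest distal site lay 77 kb upstream (99 and 103), which is 1392 bp from the nearest TSS of another gene, and the next at 54.8 kb (80 and 111). Assignment to a gene here is by window alone, and contacts between sites and promoters were not measured.

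**Figure D3:**
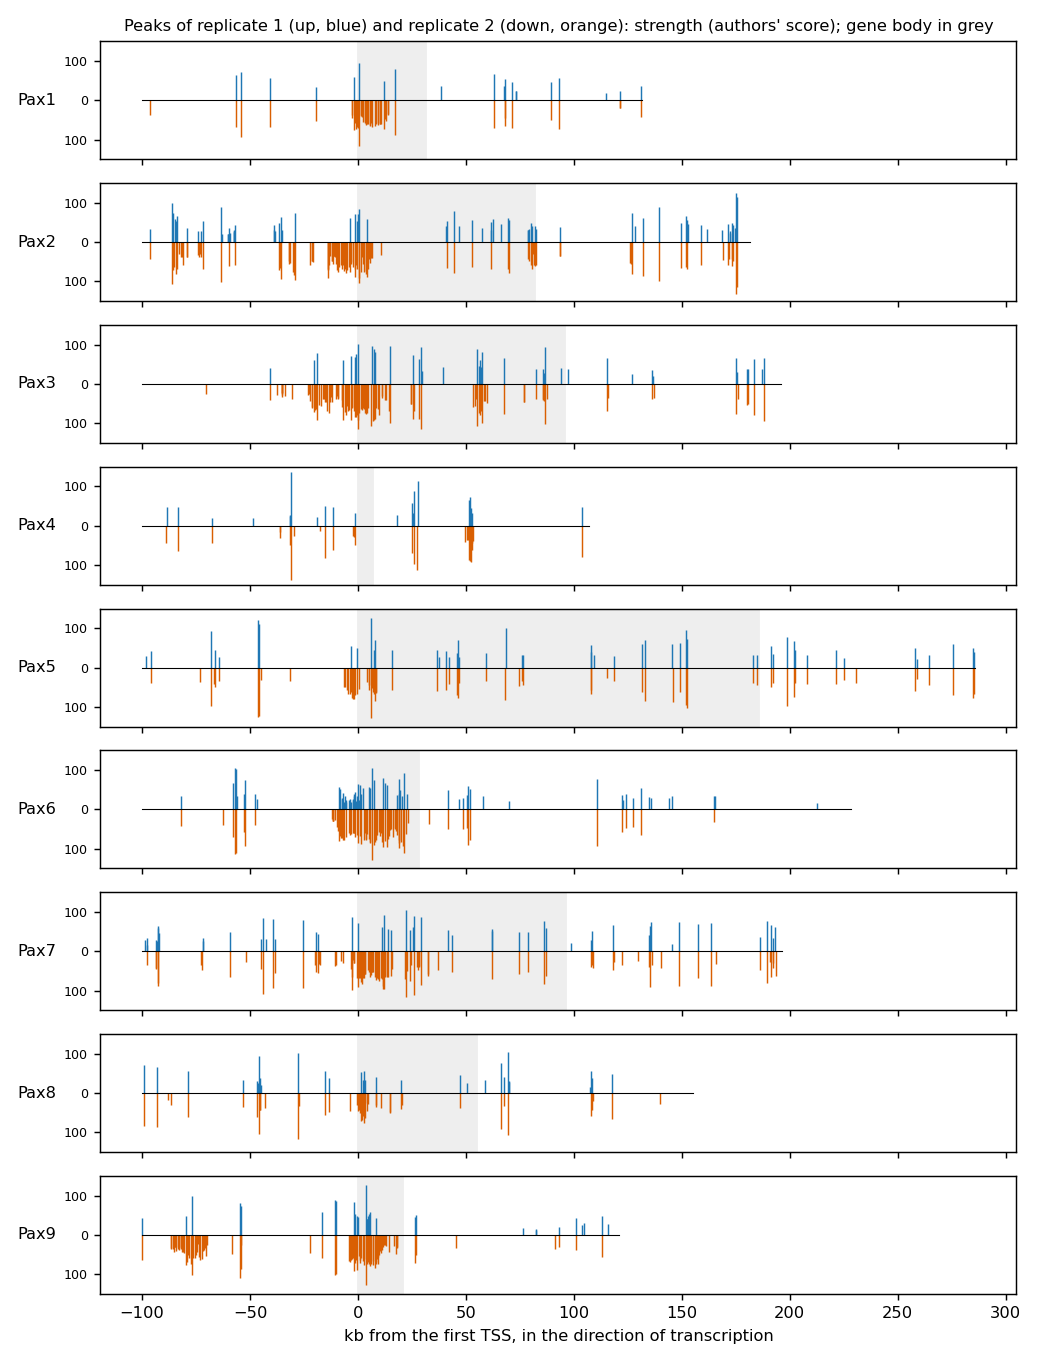
Peaks in the 9 windows by distance in kb from the first TSS in the direction of transcription (x axis), with strength (y axis, the authors' score) drawn upward for replicate 1 and downward for replicate 2, and the gene body in grey. Isolated strong peaks far from the TSS appear in both replicates, while replicate 2 peaks are dense around the TSS at most genes and sparse at Pax4.

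The replicates differed most around the Pax TSSs. Replicate 2 had more distal peaks in 8 of 9 windows, as it did in 59.9% of the 15521 protein-coding gene windows with 10 or more distal peaks in replicate 1. Over the 9 windows there were 310 distal peaks in replicate 1 and 554 in replicate 2, a ratio of 1.79, and over the genome the ratio was 1.09. In 2 windows the count was at least 2 times as high, namely Pax9 (23 and 75 distal peaks, ratio 3.26) and Pax3 (39 and 106, ratio 2.72). This held in 2.25% of all such windows. Pax7 (51 and 100), Pax1 (18 and 31), Pax2 (58 and 92), Pax8 (23 and 35), Pax4 (11 and 16) and Pax5 (39 and 54) had ratios of 1.96 to 1.38. Pax6 was the exception with 48 and 45 distal peaks. Upstream of Pax6 there were 22 and 24 distal peaks and in the gene body 6 and 9, whereas the part of the window within Elp4 held 20 and 12. All peaks of the Pax6 window, promoters included, numbered 68 and 83. In its gene body all peaks numbered 18 and 40, most of them within 1 kb of a TSS and so not distal.

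The ratio was highest close to the genes. From 1 to 5 kb from the gene's nearest TSS the 9 windows held 32 distal peaks in replicate 1 and 108 in replicate 2, a ratio of 3.38. Ratios were 4.35 from 5 to 10 kb (17 and 74 peaks) and 3.08 from 10 to 20 kb (25 and 77). Farther out they were 1.47 from 20 to 50 kb (55 and 81) and 1.33 from 50 to 100 kb (107 and 142). Windows of all protein-coding genes gave ratios from 1.28 at 1 to 5 kb to 1.12 beyond 10 kb. Within 10 kb of its TSSs Pax7 had 1 distal peak in replicate 1 and 27 in replicate 2. Pax2 had 2 and 22, Pax1 had 2 and 17, Pax9 had 5 and 30, Pax3 had 6 and 31, and Pax5 had 5 and 18. Pax6 (19 and 21), Pax8 (8 and 13) and Pax4 (1 and 3) differed least. The median over all protein-coding genes was 1 in both replicates. In sum replicate 2 had 133 more distal peaks than replicate 1 within 10 kb (49 and 182) and 113 more from 10 to 100 kb (187 and 300). Of the latter, Pax3 (22 and 65) and Pax9 (14 and 44) held most.

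**Figure D4:**
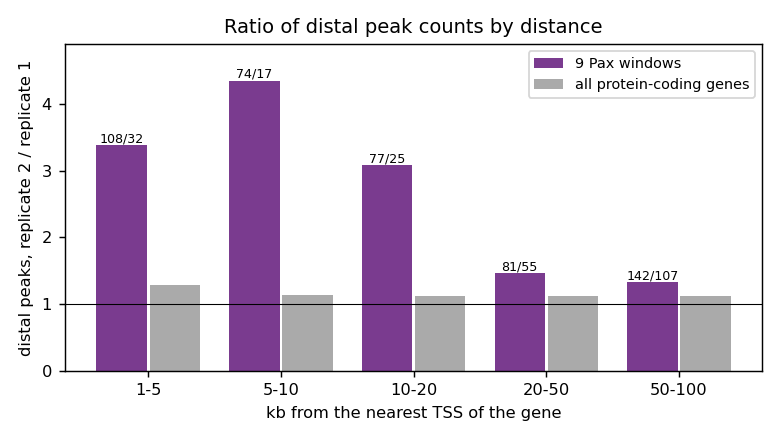
Ratio of distal peak counts in replicate 2 to replicate 1 (y axis) by distance in kb from the nearest TSS of the gene (x axis), for the 9 Pax windows and for all protein-coding genes, with the counts of replicate 2 and replicate 1 above the Pax bars. The Pax ratio is 3.38, 4.35 and 3.08 in the first 3 classes and 1.47 and 1.33 in the outer ones, while all genes stay between 1.28 and 1.12.

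Hotspots of replicate 2 also covered more bases around the first TSSs, at Pax6 too, where the distal peak counts were near equal. In the 20 kb centred on the first TSS, hotspots of replicate 2 covered 99.2% at Pax6, 83.3% at Pax2, 78.2% at Pax3, 68.7% at Pax9, 60.2% at Pax7, 59.6% at Pax1 and 56.2% at Pax5. At least 50% was covered in these 7 of 9 genes, and in 0.848% of all protein-coding genes. No protein-coding gene had a higher share than Pax6. Pax8 had 28.5% and Pax4 3.39%, with a median of 8.85% over all genes. In replicate 1 the same 20 kb was covered by 36.1% at Pax6, 14.3% at Pax3, 11.9% at Pax9, 6.51% at Pax5, 5.89% at Pax2, 5.29% at Pax8, 2.56% at Pax7, 2.33% at Pax1 and 0.695% at Pax4. None of the 9 reached 50% there, and 0.119% of all protein-coding genes did. The all-gene median in replicate 1 was 5.94%, and Pax6, Pax3, Pax9 and Pax5 lay above it and the other 5 genes below.

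Hotspots of 2 kb or wider occurred in all 9 windows in replicate 2 and in none in replicate 1, while 50.3% and 10.9% of all protein-coding gene windows held one. The widest, 8598 bp, covered the first TSS of Pax6 (chr2:105662120-105670717) and held 13 peaks of replicate 2. Hotspots of replicate 1 covered 54.5% of it. At Pax3 a hotspot of 5451 bp covered all 3 TSSs (chr1:78194496-78199946), and replicate 1 hotspots covered 22.4% of it. At Pax1 a hotspot of 4518 bp spanned both later TSSs (chr2:147364164-147368681), and no base of it was in a hotspot of replicate 1. The widest at Pax7 (5453 bp) lay in the gene body and that at Pax5 (5483 bp) just upstream of the first TSS, and replicate 1 covered 11% and 8.21% of them. At Pax2 (4673 bp), Pax8 (3439 bp) and Pax9 (4071 bp) the widest hotspot covered a TSS of the gene, with 1.75%, 26.8% and 30.6% covered in replicate 1. In the Pax4 window the widest lay at the promoter of Zfp800 in both replicates (1708 and 2631 bp), not at Pax4.

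**Figure D5:**
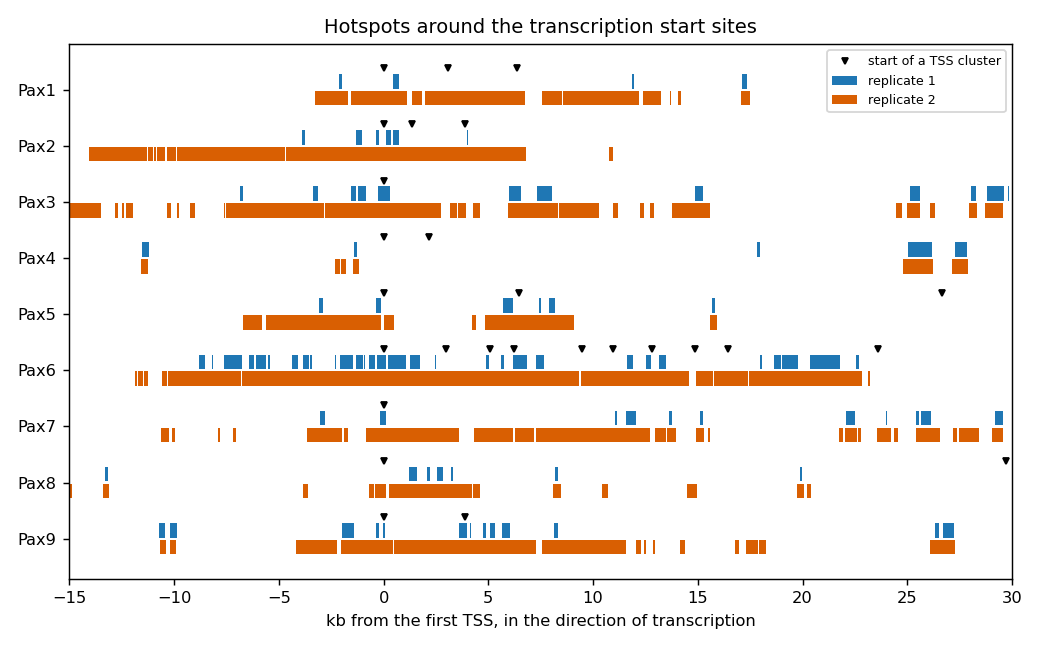
Hotspots of replicate 1 and replicate 2 from 15 kb before to 30 kb after the first TSS (x axis, kb in the direction of transcription) at each Pax gene (y axis), with triangles at the start of each TSS cluster. Replicate 2 bars run nearly without gaps across the TSSs of Pax2, Pax3 and Pax6 and in long blocks at Pax1, Pax5, Pax7, Pax8 and Pax9, replicate 1 bars are short and separate, and Pax4 has few in either.

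Far fewer of the replicate 2 distal peaks in the windows overlapped a replicate 1 peak (42.8%, against 66.7% genome-wide), whereas 75.2% of the replicate 1 distal peaks overlapped one of replicate 2 (72.4% genome-wide). The share was lowest at Pax9, where 20% of 75 replicate 2 distal peaks were matched, and at Pax3, with 30.2% of 106. Among replicate 2 distal peaks of the windows, 139 of 554 (25.1%) lay in hotspots of 2 kb or wider, against 4.28% genome-wide. With those left out the ratio of replicate 2 to replicate 1 was 1.34, and 1.05 over the genome. In the windows no replicate 1 distal peak lay in such a hotspot, so this step could only lower the ratio. At distal shared peaks replicate 2 exceeded replicate 1 by a median log2 ratio of 0.30 in the windows and 0.26 over the genome (SDs across peaks of 0.31 and 0.29). By window the median ranged from 0.22 at Pax8 to 0.54 at Pax6 and 0.63 at Pax4. The replicates also differ genome-wide in wide hotspots, with 636 of 2 kb or wider in replicate 1 and 4427 in replicate 2, and the cause of that was not tested.

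The strongest distal peak without a partner in the other replicate was stronger in replicate 2 in each of the 9 windows. How often this holds over all protein-coding genes was not counted. Replicate 2 also had more unshared distal peaks to draw from in every window except that of Pax6. There were 8 in replicate 1 and 74 in replicate 2 at Pax3, and 16 and 13 at Pax6. Genome-wide, distal peaks had median strengths of 38 in replicate 1 and 46 in replicate 2. The strongest unshared peak of replicate 2 scored 94 at Pax3, in the intron 6.78 kb from the first TSS. It scored 94 at Pax6 (20.8 kb), 89 at Pax7 (11.5 kb) and 84 at Pax9 (7.8 kb), also in gene bodies. At Pax2 it scored 84 and lay 29.5 kb upstream, and at Pax5 it scored 81 and lay 2.46 kb upstream. Pax8 (68), Pax1 (65) and Pax4 (45, in Zfp800) had weaker ones. Those of Pax2, Pax6 and Pax7 lay in a hotspot of replicate 1, so there only the peak call was unshared. In replicate 1 the strongest unshared peaks scored from 28 at Pax4 to 74 at Pax7, where it lay 135.7 kb from the first TSS. Those of Pax6, Pax7 and Pax9 lay in a hotspot of replicate 2.

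A second block of replicate 2 peaks in the Pax9 window lay around Nkx2-9, a homeobox gene of the ventral neural tube (chr12:56611389-56613284). Within 10 kb of its TSSs there were 2 distal peaks in replicate 1 and 25 in replicate 2, and hotspots covered 3.51% and 66.7% of the 20 kb around its first TSS. The count of distal peaks for Pax9 therefore includes sites that are nearer to Nkx2-9.

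At Pax6 (ENSMUSG00000027168.21, chr2:105668900-105697364, forward strand) the distal shared peaks thinned from the gene outward. The gene body of 28.5 kb held 5, equal to 17.6 per 100 kb, and the 100 kb upstream held 15. The first 100 kb downstream held 9 and the second 2. Hotspots covered 22.7% of the gene body in replicate 1 and 78.5% in replicate 2. Upstream, the pair of adjacent sites in an intron of the antisense gene Pax6os1, 56.7 and 56.5 kb from the first TSS, scored 105 and 113, and 102 and 110. They were the strongest distal shared peaks of the window, and in replicate 2 both lay in a hotspot of 2247 bp.

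Elp4, whose product is a subunit of the Elongator complex, lies 3663 bp beyond the end of Pax6 and is transcribed toward it. The stretch of 196 kb of Elp4 inside the window held 20 distal peaks in replicate 1, 12 in replicate 2 and 11 shared. Unlike at the gene itself, replicate 1 had the larger count here. The strongest shared site lay 110.6 kb from the first Pax6 TSS and scored 78 and 93. The next ones lay at 51.1 kb (60 and 90) and 52.1 kb (53 and 77), 1 kb apart. All 3 were intronic, and no hotspot in this stretch was wider than 1041 bp in either replicate. Whether these sites act on Pax6 was not measured here.

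Short motifs in the 230 distal shared peaks occurred at rates near those of all 111406 distal shared peaks. Matches were counted on both strands, and N stands for any base. The paired domain core TCACGC was found in 6 peaks (2.61%, against 2.23% of all), and the paired homeodomain dimer, TAAT and ATTA with any 3 bases between them, in none (0.241% of all), where the 95% Wilson interval reaches 1.64%. The homeodomain motif TAATTA was in 10 (4.35% against 4.28%), PBX and HOX TGATTNAT in 10 (4.35% against 4.11%) and MEIS TGACAG in 32 (13.9% against 15.2%). The SOX motif ACAANG was in 71 (30.9% against 33.3%), and TEAD GGAATG in 25 (10.9% against 11.4%). The GATA motif AGATAA was in 13 (5.65% against 6.4%), forkhead GTAAACA in 4 (1.74% against 2.23%) and the CTCF core (CC, any 3 bases, AGG, any base, GGC) in 10 (4.35% against 6.03%).

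For 2 motifs the genome-wide share lay outside the 95% Wilson interval of the windows, which treats peaks as independent and covers counting error only. Neighbouring peaks can overlap, and no allowance was made for reading 12 motifs. The E-box CAGCTG was in 27 peaks, 11.7% (8.19% to 16.5%), against 17.2% of all, and SP and KLF GGGCGG was in 23, 10% (6.76% to 14.6%), against 6.26%. The windows also had a higher GC content, with a median of 53% against 50%. It was highest at Pax7 (58%) and Pax2 (56%), and Pax2 held 9 of the 23 GGGCGG peaks. The part of base composition in these shares was not tested. In the printed sites, TCACGC occurred in the Pax3 site nearer the TSS, beside 3 SOX matches, and in the Pax9 site, where its reverse complement overlaps the PBX and HOX match. The Pax1 intron site held a CTCF core, which overlaps a GGGCGG match. The Elp4 site nearer Pax6 held TAATTA, and the other held SOX, GATA and TEAD matches. A match is a run of letters and does not show binding.

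Genes that work with Pax factors were mostly open at their promoters as well. Of 37 such genes 35 had a promoter peak in both replicates (94.6%, against 69.7% of all protein-coding genes). All 11 partner genes were open, among them Eya1 and Dach1, whose products form a regulatory network with Pax factors. Of genes that act downstream 16 of 17 were open, and of upstream regulators 8 of 9. The strongest promoters were those of the corepressor gene Tle4 (132 and 137), Six5 (126 and 127) and Mitf, the melanocyte regulator (121 and 129). Myf5, which starts the muscle programme, had a promoter peak in replicate 1 alone (46), and the caudal homeobox gene Cdx2 in replicate 2 alone (61).

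The median density of distal shared peaks over the 37 genes was 7.24 per 100 kb, between the 9 Pax windows (9.33) and all protein-coding genes (4.79). Their median ratio of replicate 2 to replicate 1 distal peaks was 1.27 over the 32 windows with 10 or more in replicate 1, against 1.59 for the Pax windows and 1.09 for all genes. Some single genes, chosen after their values were seen, went further than any Pax gene. Lbx1, a gene of migrating muscle precursors, had 30 and 103 distal peaks. Nkx3-2, which acts in the sclerotome, had 4 and 43, from a low count in replicate 1.

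Each Pax gene was also set beside the gene most like it in 4 measures over the 2 replicates, namely promoter strength in each replicate, density of distal shared peaks and share of the window in hotspots of both replicates, all as genome-wide percentiles. The closest gene outside the family was Tbx15 for Pax1, Pla2g2c for Pax2, Arntl2 for Pax3, Col10a1 for Pax4, Slc38a6 for Pax5, Kctd10 for Pax6, Olig1 for Pax7, Abcg5 for Pax8 and Golga5 for Pax9. Distances ranged from 0.512 percentile points (Col10a1, which like Pax4 has no promoter peak) to 4.91 (Arntl2). Olig1, a transcription factor gene of the neural tube, had promoter strengths of 73 and 97 and 11.9 distal shared peaks per 100 kb, against 71, 91 and 13.5 for Pax7. Tbx15, a T-box gene of mesoderm, had 101 and 117 and 6.05 per 100 kb, against 96, 117 and 6.05 for Pax1.

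Within subgroups the members were not alike in every measure. Pax3 and Pax7, whose 2 strongest distal shared peaks were all in their own introns, had 10.5 and 13.5 distal shared peaks per 100 kb and replicate 2 cover of 78.2% and 60.2% around the first TSS. Their promoter strengths differed, with 102 and 114 for Pax3 against 71 and 91 for Pax7, and the values of the genes did not overlap. Pax1 and Pax9 had similar shared densities (6.05 and 6.79), but Pax9 had the stronger promoter in both replicates when all TSSs were counted. With the first TSS alone the order turned, with a mean of 69 for Pax9 and 106.5 for Pax1. In the group of Pax2, Pax5 and Pax8 the order of promoter strength was Pax5, Pax2, Pax8 in each replicate with all TSSs, and with the first TSS alone Pax5 (mean 58.5) lay below Pax2 (95). Pax4 and Pax6 were the most unlike pair, at 3.86 against 9.44 distal shared peaks per 100 kb and 3.39% against 99.2% replicate 2 cover at the TSS.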

How the data were processed

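DNase-seq was analysed in 2 biological replicates of 1 group. Each replicate has its own peak and hotspot calls on mm10, made by the authors per the file lists deposited beside them. For aligner, caller and thresholds: not given in the sources used here. The deposited peak score, a whole number from 2 to 149 on nuclear chromosomes, has no stated definition, so it ranks peaks. The deposited hotspot value is −log10 of a q-value, from 1.3 to 100, and was not used to filter. Of 208148 and 229803 peak lines, 28 and 47 repeats were dropped, and only nuclear chromosomes were kept, whose lengths in GRCm38.p6 hold all calls.

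Genes and TSSs were those of GENCODE M21. A peak lay in the window that holds its centre. Shared peaks were each the other's best overlap (1 bp or more). Percentiles rank all 21938 protein-coding genes. Pairing and TSS distance were tested on simulated data. Python 3.11.15, numpy 2.4.6, pandas 2.3.3, scipy 1.17.1 and pyfaidx 0.9.0.4 were used.

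The members, the motifs and the lists of markers and partner genes were chosen with earlier results of these data known. Named peaks are the strongest promoter peak, the 2 strongest distal shared peaks per window, 3 in Elp4, the strongest unshared distal peak and widest hotspot per replicate, the strongest other promoter per window and the nearest gene in 4 measures. The hotspot width of 2 kb, the distance classes, the 20 kb around the TSS and the 50% cover were chosen after seeing the data. Alternatives changed the TSS window, overlap, flank, distal distance, peaks kept and replicates used. The replicates carry 1 donor entry, and their spread may be technical. Values of some single genes in these lists are not reported here.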

Additional observations from a re-analysis of the deposited data

How the results depend on the processing

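The count of 8 open Pax promoters was 6 with a TSS window of 500 bp, 9 with 2500 bp and 7 with the first TSS alone. It was 8 with the stronger 50% of peaks or either replicate, and that of the 35 network genes ranged from 34 to 36. Shares of all protein-coding genes are given for the 1 kb window only, so counts under other TSS rules have none beside them. With 500 bp Pax1 and Pax8 dropped out, because their replicate 1 promoter peaks lie over 500 bp from their own TSSs. Pax4, with no peak within 1 kb of a TSS, counted as open with 2500 bp alone. The strengths of Pax5, Pax6 and Pax9 depended on counting all TSSs and were 58.5, 74.5 and 69 with the first TSS alone, because their strongest peaks lie at later TSSs. Pax8 then had no promoter peak in replicate 1 and so no value. The 230 distal shared peaks became 145 with the stronger 50% of peaks, and single replicates gave 310 to 554. The ratio of distal peaks in replicate 2 to replicate 1 was 1.79. It was 2.03 with a flank of 50 kb, 1.78 for sites over 2500 bp from a TSS and 1.84 with the stronger 50% of peaks. Outside hotspots of 2 kb or wider it was 1.34, an alternative chosen after seeing the data, which drops peaks of replicate 2 alone. Hotspots of both replicates covered 3.64% of the windows, against 4.19% to 11% with single replicates. The share of peaks with the CTCF core was 4.35%, and 2.35% to 3.55% with single replicates, also added after seeing the data. Of 95 alternative values 84 kept within the limits set and 11 moved. No paired analysis was possible because the samples form 1 group. With 2 replicates and unknown depth, a missing peak does not show closed chromatin, and differences between the replicates cannot be assigned to embryos or to libraries.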
